A study of Rattus norvegicus with 12 samples.

Results

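The genes described here encode the numbered CD antigens of rat leukocytes, the surface molecules that bear a cluster of differentiation number. They were taken as every gene on the array whose symbol is Cd followed by a number and at most a letter and a number, leaving out Cd74, Cd177, Cd2ap, Cd2bp2 and Cd3eap. The rule found 58 genes with 74 probe sets, of 14217 genes with 1 symbol on the array. For each gene the probe set with the highest mean over the 12 arrays was used.

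Mesenteric lymph nodes (MLN) of Wistar pups at day 21, the day of weaning, were hybridized to whole-genome rat expression arrays from Affymetrix, 12 pups on 12 arrays. The study asked how conjugated linoleic acid (CLA), given as a mix rich in the c9,t11 isomer with some t10,c12 isomer, acts on MLN gene expression in early life. Milk was the postnatal route in group A, whose mothers ate a diet with 1% CLA from 2 weeks before birth until weaning (5 weeks in all). In group B the mothers had that diet up to birth, and after birth the young were gavaged with CLA every day for 3 weeks (again 5 weeks). Group C had the same gavage but no CLA before birth (3 weeks), and group D had none at either time. Each group had 3 pups, drawn at random from 10 by the methods of the study. The sources used here do not name litters, so the p-values measure the spread between these pups. No gavage is described for groups A and D, and gavage handling cannot be told apart from the route of CLA in the comparison of groups A and B.

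CD antigens are how leukocytes are told apart and how they talk to each other. The CD3 chains and the zeta chain Cd247 carry the signal of the T cell receptor, while Cd4 and Cd8 hold the receptor to MHC molecules. The B cell receptor signals through Cd79b and its partner, with Cd22 and Cd180 adjusting the threshold. Costimulatory pairs such as Cd28 with Cd86 decide whether a lymphocyte that has met antigen goes on to divide, and Cd69 appears early on activated lymphocytes and keeps them from leaving a node. Tetraspanins such as Cd53, Cd37 and Cd81 gather other receptors into patches of membrane. MLN drain the gut and hold mostly T and B cells in a frame of stromal and vascular cells.

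All values are normalized log2 intensities of a probe set, so a difference of 1 is a 2-fold change, and levels of different genes cannot be compared with each other on this scale. Of the 58 genes, 55 were above the array background in all 12 arrays, set for each array at the 95th percentile of 27 control probe sets whose spikes were absent. The exceptions were Cd200r1 in 11 arrays, Cd46 in 10 and Cd80 in 5. The spread within groups was small for most genes, with a median pooled SD of 0.253. It was lowest for Cd47, at 0.119, and highest for Cd80, at 1.54.

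One control array stood apart. Across probe sets, group D replicate 3 correlated on average at 0.931 with group B arrays and at 0.930 with group C arrays, but at 0.896 with group D replicates 1 and 2. Its level was nearer to the mean of groups B and C than to that of the other group D arrays for 42 of the 58 genes (72.4%), and for 71.2% of all 14217 genes. The summed linear intensity of 13 smooth muscle genes spanned 2875 to 3240 over the arrays of group A, 1919 to 2250 over those of group B and 1776 to 2059 over those of group C, against 11570, 12150 and 2147 in group D replicates 1, 2 and 3. Of these 13 genes 10 were above background in every array. Other tissues were also uneven within group D, and for these replicate 3 did not join groups B and C. The sums of 13 nerve and glia genes spanned 442 to 529, 332 to 381 and 289 to 395 in groups A, B and C, against 934, 1243 and 815 in group D replicates 1, 2 and 3. Those of 8 mesothelium genes spanned 383 to 405, 306 to 361 and 253 to 372 in groups A, B and C, against 973, 1036 and 566 in group D, and those of 10 gut epithelium genes 124 to 147, 106 to 140 and 89.0 to 145, against 137, 420 and 804. Above background in every array were 6, 5 and 3 genes of these lists, and the part of these tissues in the results against group D was not tested. Where leaving out group D replicate 3 changed whether a gene passed the test against group D, this is stated. Other differences from group D are given with all arrays, and some change direction without that array. The mean of Cd248 in group A was 7.10, against 6.68 over group D and 7.35 over its replicates 1 and 2. For Cd209f it was 5.30, against 4.69 and 5.43. The ratio of 3′ to 5′ signal of hexokinase, a sign of RNA integrity, spanned 2.84 to 4.96 over the arrays of group A, 1.62 to 3.24 over group B and 1.82 to 2.62 over group C, against 1.84 to 2.53 over group D, and the part of RNA integrity in the results of group A was not tested.

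The promoters of a few genes on which the comparison of groups A and D turned are shown, chosen after their values were known. They are those of Cd36, the gene with the largest difference, of Cd53 and Cd37, a pair of tetraspanins that moved in opposite directions, and of Cd180, the B cell antigen that rose. The sequences are those of RefSeq on assembly GRCr8, each with 250 bases before and 50 after the annotated start, read 5′ to 3′ on the strand of the gene. Capitals mark matches on either strand to the TATA box TATAAA. They also mark the ETS factor core, searched with the letters AGGAAG. The nuclear receptor site is marked where its repeat unit, with the letters AGGTCA, was found. The GC box was searched as GGGCGG, and no match overlapped with another in these windows.
Cd36: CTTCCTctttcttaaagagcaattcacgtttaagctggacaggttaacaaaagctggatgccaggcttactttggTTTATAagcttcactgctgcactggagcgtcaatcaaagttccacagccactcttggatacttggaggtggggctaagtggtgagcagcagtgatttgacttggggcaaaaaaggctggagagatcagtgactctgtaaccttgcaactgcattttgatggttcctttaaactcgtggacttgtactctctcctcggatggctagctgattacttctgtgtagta
Cd53: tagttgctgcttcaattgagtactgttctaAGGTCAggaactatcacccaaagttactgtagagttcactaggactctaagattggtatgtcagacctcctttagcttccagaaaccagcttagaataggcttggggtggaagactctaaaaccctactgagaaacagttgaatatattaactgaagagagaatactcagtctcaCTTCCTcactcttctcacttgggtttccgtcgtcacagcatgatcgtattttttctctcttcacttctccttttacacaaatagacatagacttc
Cd180: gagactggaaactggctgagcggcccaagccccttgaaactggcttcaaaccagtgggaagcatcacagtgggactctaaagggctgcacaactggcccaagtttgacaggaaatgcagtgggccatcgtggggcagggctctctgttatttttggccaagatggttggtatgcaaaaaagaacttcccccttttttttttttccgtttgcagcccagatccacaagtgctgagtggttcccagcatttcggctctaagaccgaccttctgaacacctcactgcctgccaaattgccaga
Cd37: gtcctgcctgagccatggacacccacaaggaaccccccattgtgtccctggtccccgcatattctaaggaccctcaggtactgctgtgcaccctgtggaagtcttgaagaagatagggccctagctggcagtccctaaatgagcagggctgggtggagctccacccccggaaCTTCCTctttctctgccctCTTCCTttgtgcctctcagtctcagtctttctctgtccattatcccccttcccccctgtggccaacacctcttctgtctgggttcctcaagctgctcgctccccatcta
These windows lie at chr4:18246332-18246631 (+) for Cd36, chr2:197087847-197088146 (-) for Cd53, chr2:35589680-35589979 (+) for Cd180 and chr1:104860735-104861034 (-) for Cd37. Cd36 held 1 TATA box and 1 ETS core, Cd53 held 1 ETS core and 1 nuclear receptor unit, Cd37 held 2 ETS cores, and in the window of Cd180 none of the searched letters occurred. A promoter in the same table was found for 45 of the 58 genes. For these genes 1 promoter each was counted, whereas the comparison took all entries, without a limit to 1 per gene or to genes on the array. The ETS core was in 21 of these 45 (46.7%), against 34.5% of all 33469 promoters in the table. The GC box was in 16 (35.6%) against 33.1%, the nuclear receptor unit in 5 (11.1%) against 16.2%, and the TATA box in 3 (6.67%) against 14.2%. These matches describe the letters of the windows and were not measured as binding.

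Pups given CLA through milk differed from pups without CLA in CD antigens of T cells, B cells, myeloid cells and blood cells at large, in both directions. Cd36, Cd69, Cd59b, Cd53 and Cd200r1 fell by more than 2-fold, and Cd164l2 and Cd180 rose by more than 2-fold, beside 5.56% of all genes that fell and 2.63% that rose by as much. Of the 58 genes 8 were higher in group A than in group D (13.8%) and 9 were lower (15.5%), at an adjusted p under 0.05 in limma. Over all 14217 genes, 16.0% were higher and 12.0% lower, and the shares of CD genes called lay within a few percentage points of these. The median difference over the 58 genes was 0.06, beside 0.15 over all genes. With the intensities as deposited, without normalization between arrays, 2 genes were higher (Cd37 and Cd180) and 7 lower, beside 1.84% and 9.64% of all genes, and the calls of Cd6, Cd7, Cd68, Cd81, Cd82, Cd164l2, Cd8a and Cd302 ended. In whole lymph nodes, fewer cells that carry an antigen and less RNA of it in each cell cannot be told apart.

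**Figure D1:**
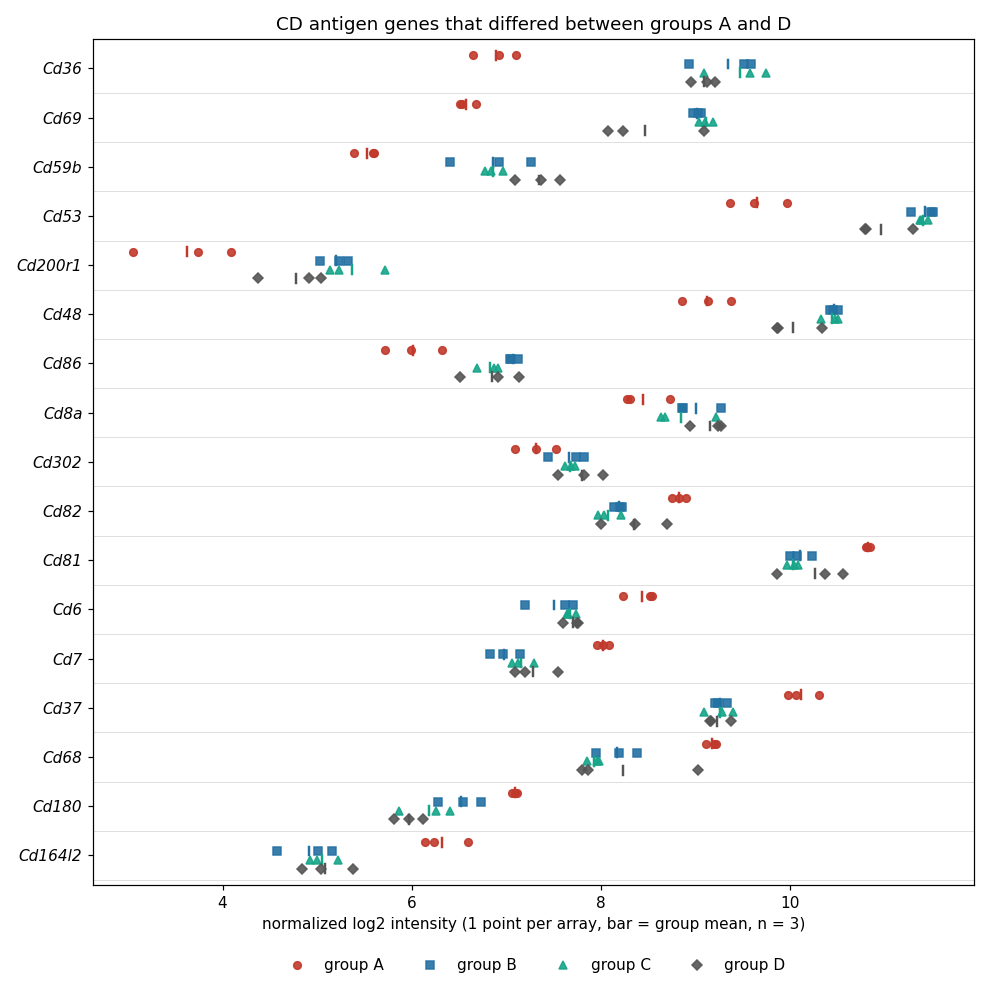
Normalized log2 intensity (x axis) of the 17 CD antigen genes that differed between groups A and D at an adjusted p under 0.05, with 1 point per array, groups A, B, C and D from top to bottom within each gene, and a bar at each group mean (n = 3). Cd36 lay at 6.65 to 7.10 over group A, against 8.95 to 9.21 over group D, and for Cd69, Cd53 and Cd48 group D replicate 3 was the highest array of group D.

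The signalling chains of the T cell receptor did not pass the test, whereas the Cd8a coreceptor fell. Of the 7 genes of signalling chains and coreceptors, 1 was lower in group A than in group D and none was higher. Cd8a, the alpha chain of the coreceptor of cytotoxic T cells, had levels of 8.74, 8.31 and 8.28 in group A, 9.28, 8.87 and 8.86 in pups of group B and 8.64, 9.22 and 8.68 in group C, against 9.24, 8.94 and 9.27 in group D. All arrays of group A were below those of group D, with a difference of -0.71 ± 0.18 (SE, n = 3 against 3, adjusted p = 0.0165 in limma). The other probe sets of Cd8a gave -1.02 (adjusted p = 0.00213) and -0.46 (adjusted p = 0.196). Leaving out replicate 2 or replicate 3 of group A ended the call of Cd8a, with adjusted p up to 0.0694.

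Cd8b, the beta chain of the same coreceptor, had 7.21, 6.72 and 6.74 in group A, against 7.47, 7.03 and 7.25 in group D, and the groups overlapped. Its difference was -0.36 (95% interval -0.91 to 0.18, adjusted p = 0.367). Cd4, the coreceptor of helper T cells, had 7.12, 6.50 and 6.69 in group A, against 7.43, 7.00 and 6.34 in group D, a difference of -0.15 (95% interval -0.71 to 0.41, adjusted p = 0.750).

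Of the signalling chains none passed. Cd3e had 10.77, 10.36 and 10.54 in group A, against 10.38, 10.15 and 10.06 in group D, a difference of 0.36 ± 0.13 that missed the threshold (adjusted p = 0.0808). Its second probe set, also above background in every array, was at 0.02 (adjusted p = 0.953). Cd3d differed by 0.28 (adjusted p = 0.123), Cd3g by -0.16 (adjusted p = 0.447) and Cd247 by -0.11 (adjusted p = 0.649), and the intervals of these 3 chains reached at most 0.53 above and 0.43 below no change. Of 13 measured T cell markers, a list that includes these signalling chains, 5 were higher in group A than in group D and 1 was lower. Over all genes 16.0% were higher and 12.0% lower. The summed linear intensity of the T cell markers spanned 13570 to 15210 over group A, against 11670 to 12710 over group D.

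**Figure D2:**
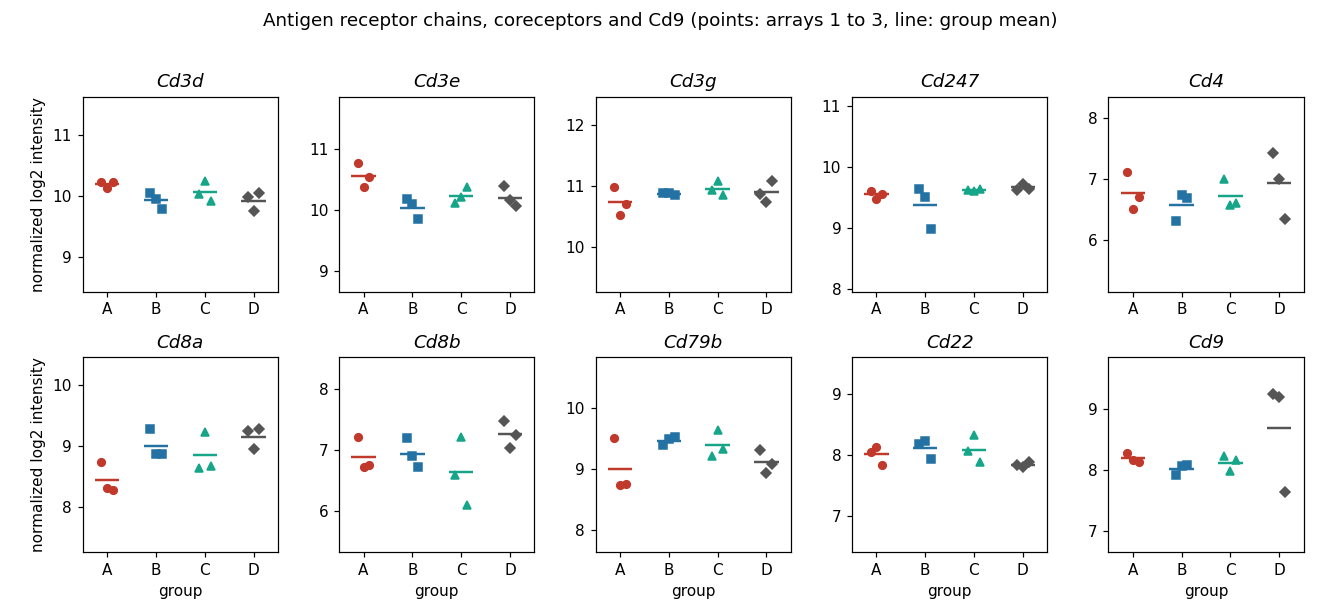
Normalized log2 intensity (y axis) of the T cell receptor signalling chains Cd3d, Cd3e, Cd3g and Cd247, the coreceptors Cd4, Cd8a and Cd8b, the B cell antigens Cd79b and Cd22 and the tetraspanin Cd9 in groups A, B, C and D, with 1 point per array and a line at the mean (n = 3). Group A lay below group D for Cd8a, and for Cd9 the arrays of group D split into 9.24 and 9.18 for replicates 1 and 2 and 7.63 for replicate 3.

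The antigens of T cell activation and adhesion split. Of 8 genes, Cd69 fell, Cd6 and Cd7 rose, and 5 did not pass the test. Cd69, the early activation antigen, had 6.51, 6.54 and 6.68 in group A, 8.98, 9.03 and 9.06 in pups of group B and 9.19, 9.10 and 9.04 in group C, against 8.23, 8.07 and 9.09 in group D. Group A was thus low in all 3 arrays, and within group D replicate 3 was at the level of groups B and C. Cd69 was 3.71-fold lower in group A than in group D (log2 difference -1.89 ± 0.20, adjusted p = 6.25e-05). Without group D replicate 3 the difference was -1.58.

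Cd7, an immunoglobulin-like antigen of T and NK cells, had 8.09, 7.96 and 8.03 in group A, 6.97, 6.83 and 7.15 in pups of group B and 7.12, 7.29 and 7.06 in group C, against 7.55, 7.10 and 7.19 in group D. It was 1.68-fold higher in group A than in group D (0.75 ± 0.14, adjusted p = 0.0029). Cd6, a scavenger-type receptor of T cells that binds ALCAM, had 8.52, 8.54 and 8.23 in group A, against 7.75, 7.60 and 7.76 in group D (0.73 ± 0.14, adjusted p = 0.0033). Both genes had every array of group A above every array of the other groups, and neither passed with intensities as deposited.

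Cd28, the costimulatory receptor of T cells, had 4.07, 4.48 and 4.18 in group A, against 5.17, 4.61 and 5.44 in group D. The groups did not overlap, but the difference of -0.83 ± 0.28 missed the threshold (adjusted p = 0.0544). The adhesion receptor Cd2 differed by 0.12 and Cd5, which dampens T cell receptor signals, by 0.28 (adjusted p = 0.535 and 0.302). Cd244l1 was at -0.70 (adjusted p = 0.152) and the NK cell receptor Cd96 at -0.48 (adjusted p = 0.165).

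Of 5 B cell genes Cd180 alone passed the test. Cd180, a Toll-like receptor homologue of B cells, had 7.09, 7.11 and 7.07 in group A, 6.55, 6.28 and 6.73 in pups of group B and 5.87, 6.41 and 6.26 in group C, against 6.12, 5.82 and 5.97 in group D. Group A was above all other arrays, and group B above all of group D. The rise in group A was 2.17-fold (1.12 ± 0.18, adjusted p = 0.000877). Cd79b, a signalling chain of the B cell receptor, had 9.52, 8.75 and 8.76 in group A, against 9.32, 8.94 and 9.10 in group D (-0.11, adjusted p = 0.744). The inhibitory receptor Cd22 had 8.05, 8.14 and 7.85 in group A, against 7.84, 7.80 and 7.89 in group D (0.17, adjusted p = 0.439), and Cd40 and Cd24 differed by 0.04 and 0.09. Of 9 measured B cell markers 3 were higher in group A and 1 was lower, and 4 of 6 plasma cell markers were higher. The shares over all genes were 16.0% higher and 12.0% lower. The summed linear intensity of the B cell markers was 3549 to 4179 in group A, against 3461, 3013 and 4413 in group D replicates 1, 2 and 3.

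Among the 7 genes of antigen presentation and costimulatory ligands, Cd86 and Cd200r1 fell and none rose. Cd86, a ligand of Cd28 on dendritic cells and B cells, had 6.33, 5.72 and 5.99 in group A, 7.04, 7.05 and 7.12 in pups of group B and 6.69, 6.87 and 6.92 in group C, against 7.14, 6.51 and 6.91 in group D. It was 1.79-fold lower in group A than in group D (-0.84 ± 0.19, adjusted p = 0.00746), and its other probe set gave -1.03 (adjusted p = 0.0601). Group A was below every array of the other groups. With groups A and D alone in the fit Cd86 no longer passed.

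Cd200r1, the inhibitory receptor that binds Cd200 on myeloid cells, was dimmer, at 3.74, 3.05 and 4.09 in group A, against 5.04, 4.37 and 4.91 in group D, and in 1 array of 12 it was not above background. It was 2.21-fold lower in group A (-1.15 ± 0.33, adjusted p = 0.0257), a call that was lost without group A replicate 2, group D replicate 1 or group D replicate 3. The call was also lost with a floor of 32 in linear intensity and with groups A and D alone in the fit. Over the other settings the difference of Cd200r1 ranged from -1.38 to -0.01. Its ligand gene Cd200 differed by 0.20 (adjusted p = 0.310). Cd1d1, which presents lipids, and Cd83, of mature dendritic cells, differed by -0.11 and 0.12. Cd276 was at 0.60 (adjusted p = 0.262), and Cd80, above background in only 5 arrays, had an interval from -3.07 to 1.63.

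Of 11 myeloid and scavenger receptor genes, Cd36 and Cd302 fell, Cd68 rose and 8 did not pass. Cd36, the scavenger receptor that takes up long-chain fatty acids and oxidized lipoproteins and is a known target of PPAR nuclear receptors, had 6.92, 6.65 and 7.10 in group A, 8.93, 9.52 and 9.59 in pups of group B and 9.75, 9.09 and 9.58 in group C, against 9.21, 9.13 and 8.95 in group D. The 9 arrays of groups B, C and D lay within 8.93 to 9.75, and all 3 of group A were far below. Cd36 was 4.61-fold lower in group A than in group D (-2.20 ± 0.20, adjusted p = 1.73e-05), the largest change of the 58 genes in this comparison. Of 14 measured adipocyte markers 3 were lower in group A than in group D and 0 were higher, beside 12.0% and 16.0% of all genes. Their summed linear intensity spanned 5515 to 7045 over group A, 6341 to 9675 over group B and 5384 to 7007 over group C, against 7045 to 9832 over group D. The part of adipose tissue in the fall of Cd36 was not tested.

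Cd68, a glycoprotein of macrophage lysosomes, had 9.22, 9.20 and 9.11 in group A, 8.19, 7.95 and 8.38 in pups of group B and 7.96, 7.98 and 7.85 in group C, against 9.03, 7.80 and 7.86 in group D. Here replicate 1 of group D was the high one. The rise in group A was 1.93-fold (0.95 ± 0.25, adjusted p = 0.0179), and it no longer passed when group A replicate 1 or 2 or group D replicate 2 or 3 was left out. Cd302, a C-type lectin of macrophages and dendritic cells, had 7.09, 7.53 and 7.32 in group A, against 8.02, 7.82 and 7.55 in group D (-0.48 ± 0.16, adjusted p = 0.046), and lost its call in 9 of 12 fits that left out 1 array, keeping it where A2, B1 or D3 (the group letter and replicate number) was the array left out. It was lost with the replicate block as well.

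The lipopolysaccharide coreceptor Cd14 had 9.35, 8.88 and 8.97 in group A, against 9.60, 9.48 and 8.21 in group D (-0.03, 95% interval -0.68 to 0.62). Cd163, the haemoglobin scavenger receptor, differed by -0.47 and Cd5l, a secreted protein of macrophages, by 1.16 (adjusted p = 0.581 and 0.156). Cd93 was at -0.69 (adjusted p = 0.0619) and the inhibitory receptor Cd300a at 0.59 (adjusted p = 0.0662). The other 3 genes, Cd33, Cd209f and Cd300c2, differed by 0.31, 0.61 and -0.22. Beside them, 3 of 10 measured macrophage and dendritic cell markers were higher in group A and 1 was lower, and 4 of 7 neutrophil markers were higher. Of 9 natural killer cell markers 1 was higher and 1 lower, and of 10 endothelium markers 1 was higher and 2 lower. Among all genes 16.0% were higher and 12.0% lower. The neutrophil markers summed to 368.6 to 517.6 over group A, against 137.5 to 152.5 over group D, with 3 of the 7 above background in every array.

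The tetraspanins went both ways. Of 7 genes Cd53 fell and Cd37, Cd81 and Cd82 rose. Cd53, found on leukocytes of nearly every kind, had 9.36, 9.62 and 9.97 in group A, 11.29, 11.52 and 11.50 in pups of group B and 11.38, 11.46 and 11.39 in group C, against 10.81, 10.79 and 11.30 in group D. Group A was the lowest and group D replicates 1 and 2 lay between it and the other arrays. Cd53 was 2.48-fold lower in group A than in group D (-1.31 ± 0.16, adjusted p = 0.000167).

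Cd37, a tetraspanin most abundant on B cells, had 9.98, 10.31 and 10.06 in group A, 9.21, 9.34 and 9.24 in pups of group B and 9.09, 9.40 and 9.28 in group C, against 9.38, 9.17 and 9.15 in group D. All 9 arrays outside group A lay within 9.09 to 9.40. The rise was 1.85-fold (0.89 ± 0.12, adjusted p = 0.000252). Cd81, part of the B cell coreceptor, had 10.82, 10.84 and 10.80 in group A, against 10.56, 10.37 and 9.86 in group D (0.56 ± 0.15, adjusted p = 0.0173), and was not called without group A replicate 2 (adjusted p = 0.0574).

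Cd82 had 8.90, 8.82 and 8.75 in group A, against 8.70, 8.37 and 8.01 in group D (0.47 ± 0.15, adjusted p = 0.0424), and this call was lost in 11 of 12 fits that left out 1 array, the exception being the fit without group D replicate 1. The lysosomal Cd63 and the integrin partner Cd151 differed by 0.22 and 0.21 (adjusted p = 0.428 and 0.493). Cd9, a tetraspanin of stromal cells, platelets and some leukocytes, had 8.28, 8.16 and 8.13 in group A, 7.92, 8.05 and 8.08 in pups of group B and 8.22, 7.97 and 8.15 in group C, against 9.24, 9.18 and 7.63 in group D. Its difference of -0.50 did not pass (adjusted p = 0.313), while without group D replicate 3 it was -1.03 ± 0.10 (adjusted p = 4.67e-05).

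Of the 3 complement regulators Cd59b fell. Cd59b, an inhibitor of the membrane attack complex, had 5.59, 5.39 and 5.60 in group A, 6.41, 7.26 and 6.92 in pups of group B and 6.96, 6.83 and 6.77 in group C, against 7.37, 7.57 and 7.09 in group D. It was 3.53-fold lower in group A than in group D (-1.82 ± 0.20, adjusted p = 8.29e-05). Groups B and C lay between groups A and D, with differences of -0.48 and -0.49 from group D (adjusted p = 0.281 and 0.242). Cd55, which speeds the decay of complement convertases, was split between its probe sets, with -0.31 for the brighter (adjusted p = 0.255) and -1.56 for the dimmer (adjusted p = 0.00449). Cd46 was near background in some arrays and differed by 0.18 (adjusted p = 0.859).

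Of the 7 adhesion molecules found on many leukocytes, Cd48 fell. Cd48, the SLAM family ligand of Cd2, had 8.86, 9.14 and 9.38 in group A, 10.43, 10.46 and 10.51 in pups of group B and 10.51, 10.33 and 10.48 in group C, against 9.88, 9.87 and 10.34 in group D. It was 1.87-fold lower in group A than in group D (-0.90 ± 0.15, adjusted p = 0.00109). Cd47, the ligand that restrains uptake by phagocytes, differed by -0.31 (adjusted p = 0.0646) and in its other probe set by 0.30 (adjusted p = 0.135), and the hyaluronan receptor Cd44 by -0.36 (adjusted p = 0.161). Cd164, Cd52 and Cd99 were at -0.24, 0.11 and 0.45. The brighter probe set of Cd99l2 was at 0.42 (adjusted p = 0.215), whereas the other, not above background in any array of group A, was at least 1.85-fold lower than in group D (adjusted p = 0.0131).

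The last 3 genes belong to stroma and other cells. Cd164l2, named for its likeness to Cd164, had 6.14, 6.59 and 6.23 in group A, 5.16, 4.57 and 5.01 in pups of group B and 4.93, 5.22 and 5.00 in group C, against 5.38, 5.04 and 4.84 in group D. Group A was above all 9 other arrays, with a 2.35-fold rise over group D (1.24 ± 0.24, adjusted p = 0.00331), which did not pass with intensities as deposited. Cd320, the receptor for transcobalamin, was at 0.40 (adjusted p = 0.0604), and Cd248, the endosialin of pericytes and fibroblasts, at 0.42 (adjusted p = 0.591).

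**Figure D3:**
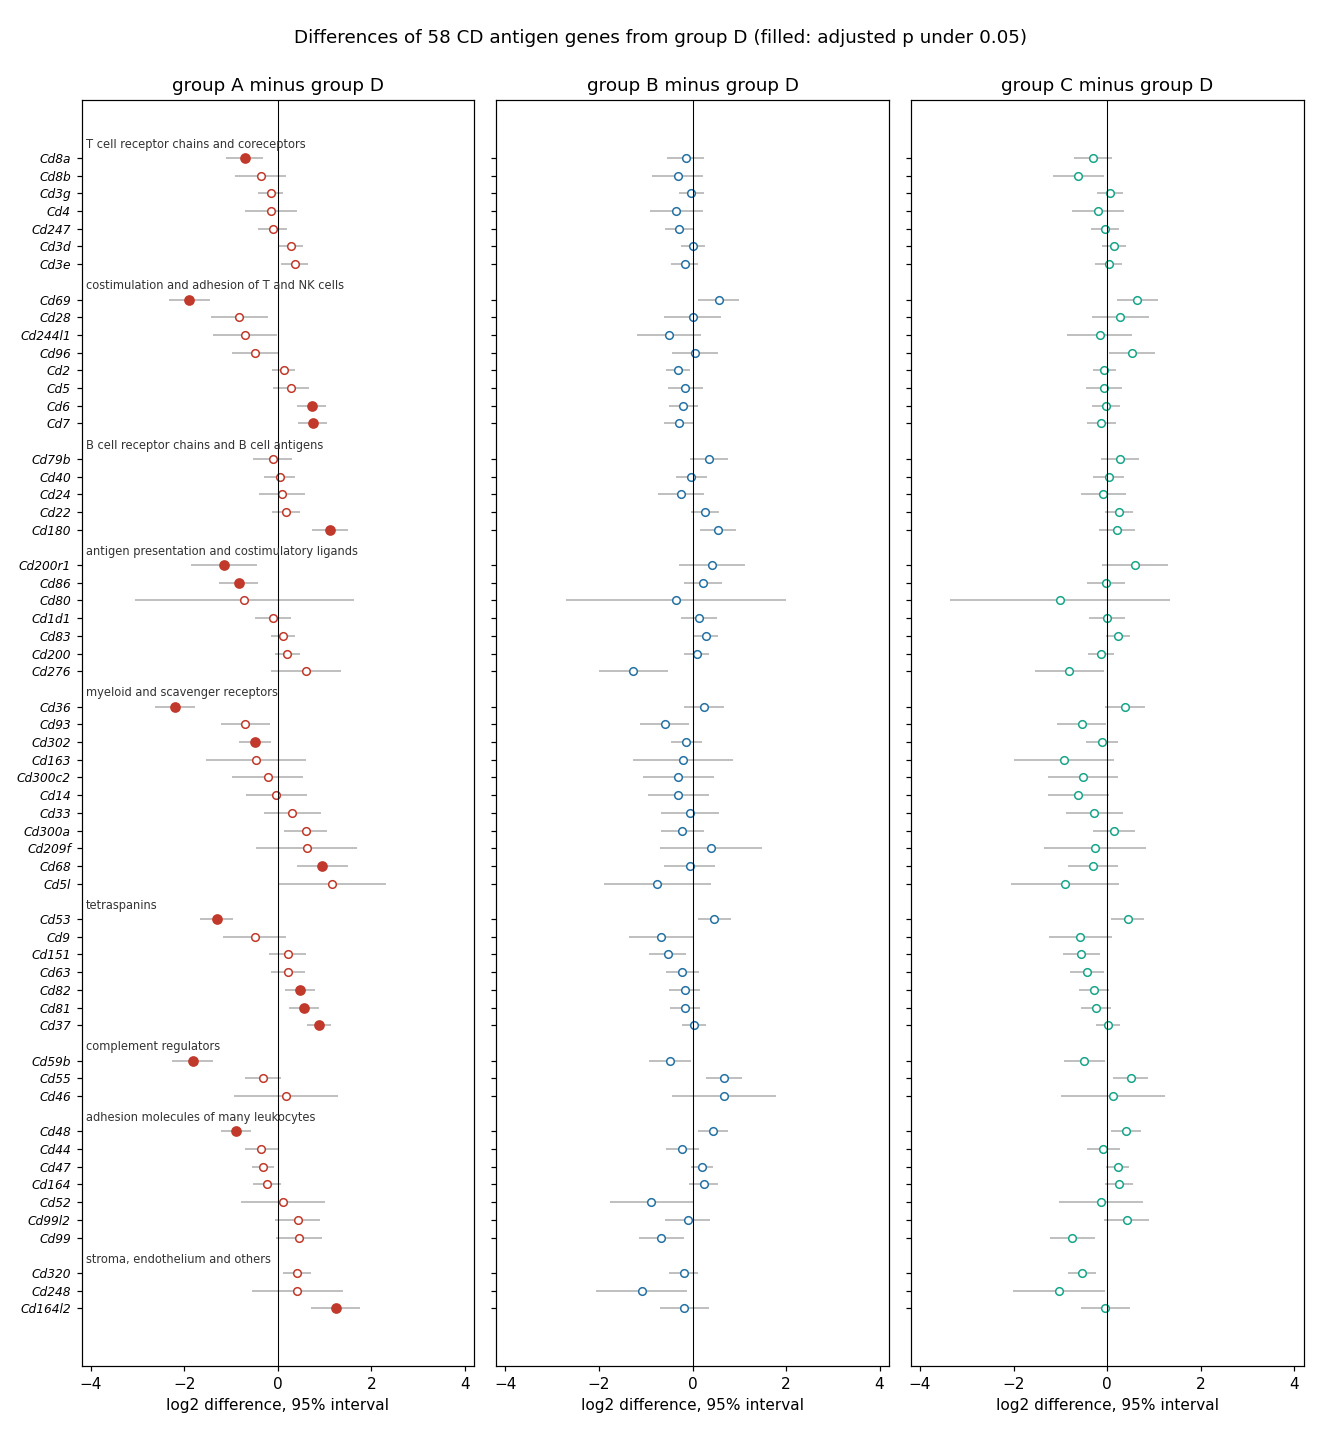
Log2 difference (x axis) of each of the 58 genes from group D in groups A, B and C, in blocks by role, with points at the estimate, bars for the 95% interval and filled points where the adjusted p was under 0.05. In group A 17 points are filled, from Cd36 at -2.20 to Cd164l2 at 1.24, and in groups B and C none is.

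Groups A and B had CLA in gestation alike and differed in how it reached the suckling pups. The study also gives a different ratio of the CLA isomers in the plasma of pups of these groups. That difference cannot be told apart from the route here. More CD antigens passed than in the comparison with group D. In limma 17 of the 58 genes were higher in group A than in group B (29.3%) and 12 were lower (20.7%), while over all genes 26.9% were higher and 15.0% lower. The median was 0.14, beside 0.30 over all genes. As deposited, with a median shift of 0.39 over all probe sets, 24 were higher and 5 lower, beside 31.7% and 6.06% of all genes, and Cd48, Cd55, Cd86, Cd8a, Cd28, Cd47 and Cd164 were no longer called lower.

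Cd69 and Cd36 were again furthest apart, 5.46-fold and 5.48-fold lower in group A than in group B (-2.45 ± 0.20 for each, adjusted p = 6.11e-06 and 5.61e-06). Below them came Cd53 at -1.78, Cd200r1 at -1.57, Cd48 at -1.34 and Cd59b at -1.34, with Cd86 at -1.06. With a floor of 32 in linear intensity Cd200r1 was no longer called, and its smallest difference over the other settings was -0.20. Cd55 was lower in group A at 7.06, 7.20 and 7.59, against 8.28, 8.13 and 8.39 in group B (-0.99 ± 0.18, adjusted p = 0.0011). Its dimmer probe set gave -1.99 (adjusted p = 0.000598).

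Cd28 and Cd8a were lower in group A by 0.84 and 0.56 on the log2 scale (adjusted p = 0.0371 and 0.0345). Neither call held in every fit that left out 1 array. That of Cd28 was lost without replicate 1 or 3 of group A or of group B or any array of group C, and that of Cd8a without replicate 2 or 3 of group A or replicate 1 or 2 of group B. Cd47 differed by -0.51 (adjusted p = 0.00365), but its other probe set by 0.11 (adjusted p = 0.585). Cd164 differed by -0.48 (adjusted p = 0.0193).

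Cd5l, Cd276 and Cd248 led the rises. Cd5l had 6.92, 5.24 and 6.38 in group A, against 4.34, 3.36 and 5.11 in group B, and was 3.75-fold higher (1.91 ± 0.53, adjusted p = 0.0153), with a wide spread in both groups. Cd276, the costimulatory family member B7-H3 of stromal and myeloid cells, had 6.69, 6.65 and 6.55 in group A, against 4.89, 4.32 and 5.07 in group B, and was 3.64-fold higher (1.87 ± 0.34, adjusted p = 0.00132). Cd248 had 6.91, 7.25 and 7.14 in group A, against 5.56, 5.43 and 5.80 in group B, a 2.83-fold rise (1.50 ± 0.45, adjusted p = 0.0224). The dimmer probe sets gave 0.98 for Cd276, 1.10 for Cd5l and 0.72 for Cd248 (adjusted p = 0.372, 0.382 and 0.345). Those of Cd5l and Cd248 were within background in most or all arrays. In the brighter probe sets no array of group A overlapped with group B for these genes. Beside them, the smooth muscle sums were those given above, higher in every array of group A than in group B, and their part in these rises was not tested.

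Cd164l2 rose by 1.41 and Cd99, an adhesion molecule of leukocytes and endothelium, by 1.12. Cd99 had 8.87, 9.10 and 8.67 in group A, against 7.84, 7.76 and 7.69 in group B (adjusted p = 0.00222). Its dimmer probe set gave 0.80 (adjusted p = 0.501), and the call was lost with the mean over its probe sets. Cd7, Cd68, Cd6 and Cd37 were higher in group A by 1.04, 1.00, 0.92 and 0.86, and Cd300a and Cd151 by 0.81 and 0.73. Smaller rises of 0.43 to 0.72 were found for Cd81, Cd82, Cd320, Cd180, Cd3e and Cd2. Of the T cell receptor signalling chains, Cd3e had 10.77, 10.36 and 10.54 in group A, against 10.17, 10.09 and 9.84 in group B (0.52 ± 0.13, adjusted p = 0.00977), while its second probe set was at 0.16 (adjusted p = 0.566). Several of these calls did not hold in every fit that left out 1 array. Cd3e was lost without group B replicate 3 (adjusted p = 0.0504), Cd5l without replicate 1 or 3 of group A or replicate 2 of group B, and Cd248 without replicate 2 or 3 of group A or replicate 1 or 2 of group B. Cd180 was lost without any 1 array of group A or replicate 1 or 2 of group B, and Cd164 when replicate 1 of group A, or 2 or 3 of group B, was left out.

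Groups B and C, which both had CLA by gavage and differed in exposure during gestation, showed no detectable difference in these genes. None of the 58 passed limma's test in either direction, and 0% of all genes did. At an unadjusted p under 0.05, Cd320 was higher in group B (0.35 ± 0.14) and Cd99l2 lower (-0.52 ± 0.22), 1 gene each way, beside 1.96% and 1.93% of all genes. The adjusted p was 1 for both. Cd320 had 7.50, 7.65 and 7.86 in group B, against 7.29, 7.35 and 7.32 in group C. The median difference was -0.00. For Cd36 the levels given above overlapped between both groups, as did those of Cd69 and Cd48.

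Against group D, no CD antigen passed in either gavaged group with all arrays in the fit. At an unadjusted p under 0.05 in limma, 6 genes were higher and 7 lower in group B than in group D, beside 6.47% and 10.5% of all genes, and 5 were higher and 9 lower in group C, beside 7.42% and 12.2%. At the adjusted threshold 0.00703% of all genes were higher and 0.0141% lower in group B. In group C the shares were 0.00703% and 0.0352%. The lowest adjusted p among the 58 genes were those of Cd55 in group B and Cd320 in group C. Cd55 had 8.28, 8.13 and 8.39 in group B, against 7.88, 7.47 and 7.44 in group D (0.67 ± 0.18, adjusted p = 0.191). Cd320 had 7.29, 7.35 and 7.32 in group C, against 7.91, 8.08 and 7.60 in group D (-0.54 ± 0.14, adjusted p = 0.150). As deposited, where the median of all probe sets lay 0.70 below group D, 24 CD genes were lower in group C, as were 35.0% of all genes.

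In 5 genes, Cd53, Cd48, Cd200r1, Cd96 and Cd320, all arrays of group A and all arrays of a gavaged group lay on opposite sides of the arrays of group D, as they did for 7.53% of all genes.

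The counts of groups B and C against group D depended on group D replicate 3. Without it 4 genes were higher and 10 lower in group B than in group D, beside 7.15% and 12.8% of all genes, and 4 were higher and 14 lower in group C, beside 8.04% and 15.0%. The genes are named here after their values were seen. The array was singled out because it resembled groups B and C. Leaving out an array chosen in this way tends to widen the distance of group D from these groups. The calls without it therefore describe the remaining arrays and are not separate support for a difference. Both comparisons share the remaining control arrays, of which there are 2, and the spread is pooled with that of the other groups.

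Cd69, Cd53 and Cd48 were higher in both gavaged groups without that array. Cd69 was higher by 0.87 ± 0.10 for group B and 0.96 ± 0.10 for group C, Cd53 by 0.64 and 0.61, and Cd48 by 0.59 and 0.57. Cd55 passed in group B (0.60, adjusted p = 0.0449) and Cd164 in group C (0.40, adjusted p = 0.0397). Cd69, Cd53 and Cd48 had differences of -1.58, -1.15 and -0.75 in group A in the same fit, which rests on the same control arrays.

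Cd248 and Cd276, known from stromal cells, were lower in both gavaged groups without that array. Cd248 was lower by 1.76 ± 0.27 in group B on the log2 scale, and by 1.70 ± 0.27 in group C, with levels of 6.84, 7.87 and 5.34 in group D replicates 1, 2 and 3. Cd276 differed by -1.74 and -1.28, Cd9 by -1.20 and -1.10, and Cd151 by -0.74 and -0.77. Cd99 fell by 1.00 and 1.08 on the log2 scale. Cd14 differed by -0.75 for group B and -1.06 for group C, and Cd93, of endothelium and myeloid cells, by -0.82 and -0.77.

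Cd300c2, Cd63 and Cd81 were lower in both gavaged groups by 0.36 to 1.02 on the log2 scale. In group C alone Cd163 (-1.42, adjusted p = 0.0441), Cd209f, Cd320 and Cd82 passed as well, and the difference between the gavaged groups did not pass for any of them. The smooth muscle sums of the remaining control arrays, 11570 and 12150, were the highest of the 12, and the part of that tissue in these differences was not tested.

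**Figure D4:**
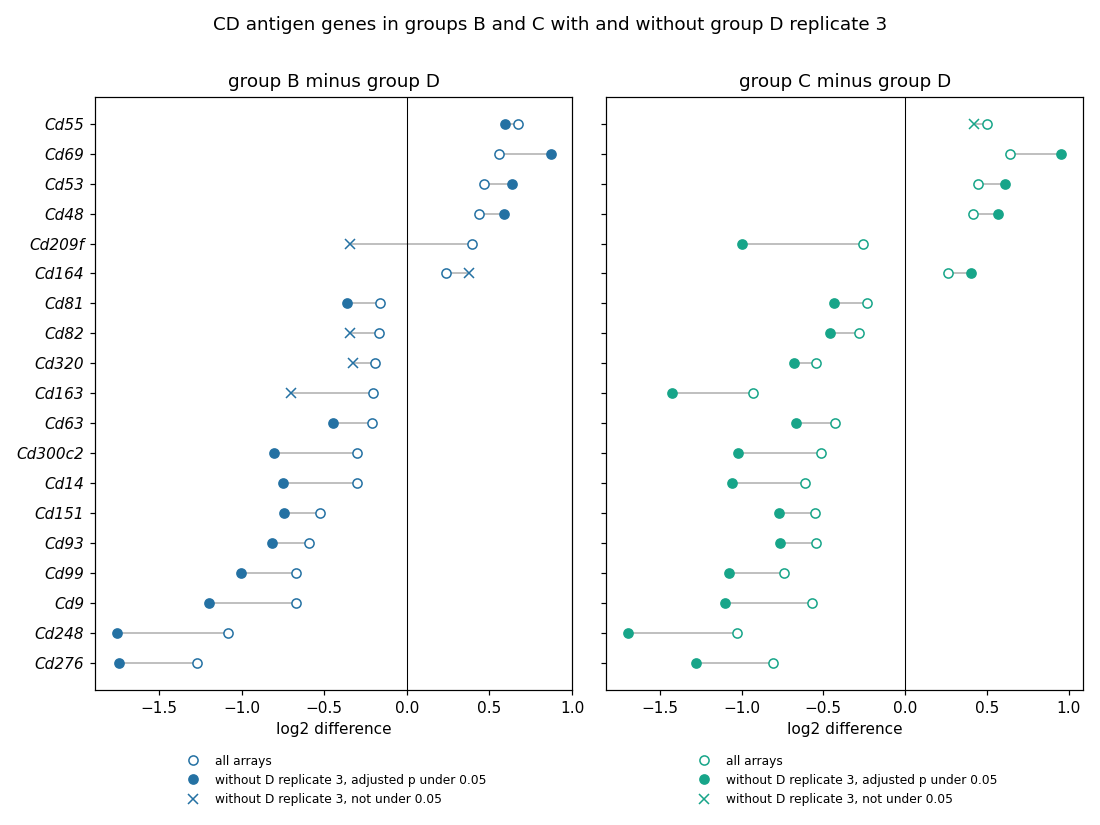
Log2 difference from group D (x axis) in group B (left) and group C (right) for the 19 CD antigen genes that passed in either group once group D replicate 3 was left out, with all arrays (open) and without that array (filled where the adjusted p was under 0.05, a cross where it was not). Without the array Cd248 lay at -1.76 and -1.70, and Cd69 at 0.87 and 0.96.

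In group A the same step left the main falls in place. Without group D replicate 3, 7 genes were higher and 12 lower in group A, beside 14.6% and 13.4% of all genes. Cd36 was at -2.27 and Cd59b at -1.95. Cd68, Cd82 and Cd200r1 no longer passed, and Cd9, Cd244l1, Cd93, Cd300c2 and Cd300a now did.

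**Figure D5:**
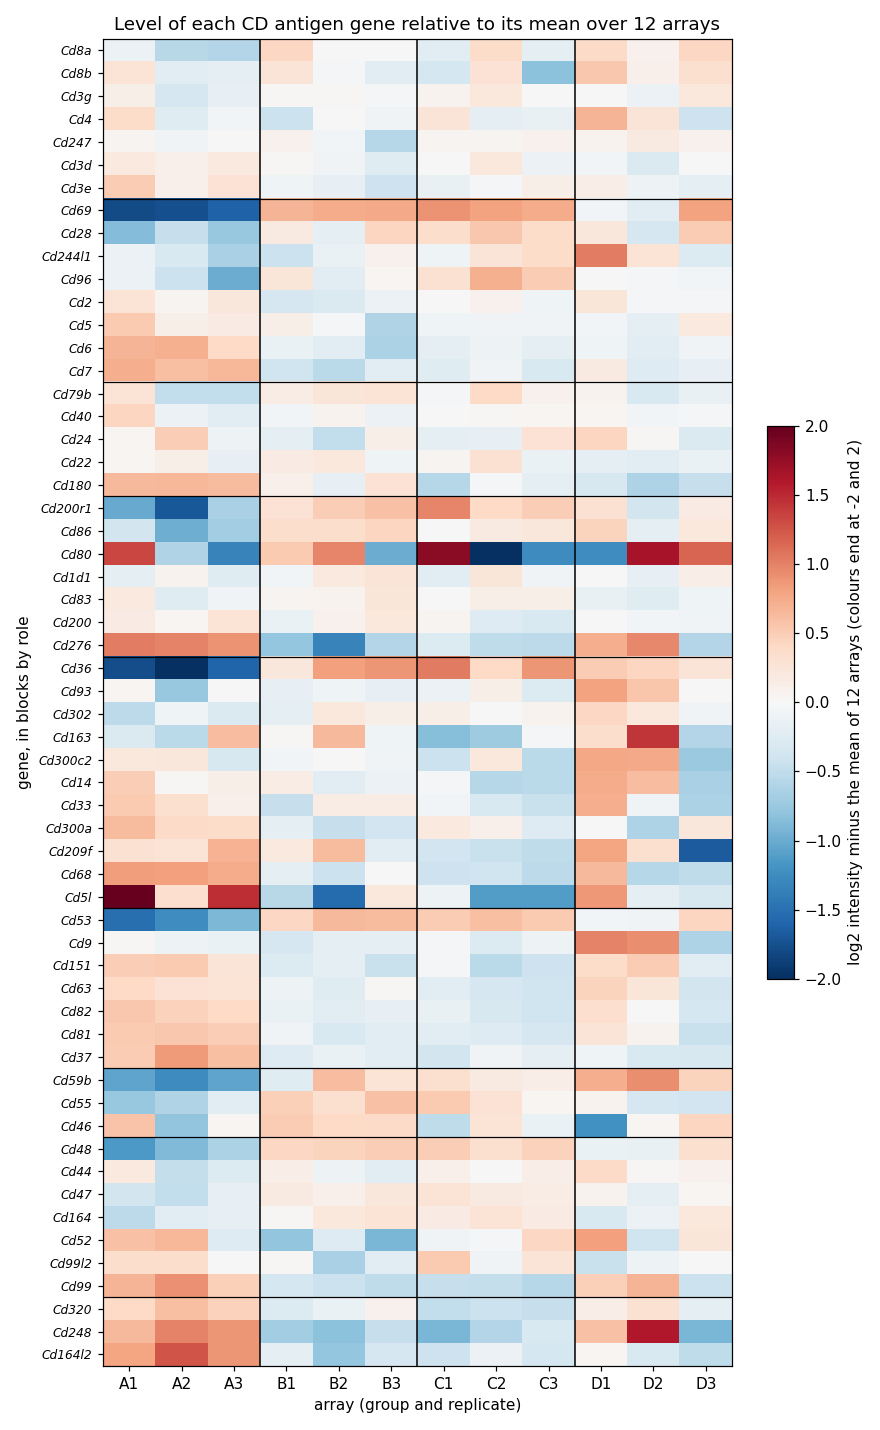
Level of each of the 58 genes (rows, in blocks by role) in each array (columns, groups A, B, C and D with replicates 1 to 3), as log2 intensity minus the mean of the gene over 12 arrays, with blue below and red above and colours ending at -2 and 2. Group A stands out in Cd69, Cd36, Cd53 and Cd59b, and the column of group D replicate 3 differs from those of replicates 1 and 2 in Cd9, Cd276 and Cd248.

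Leukocyte antigens that carry a CD number in the clinic but another gene symbol were followed as a second list, written with earlier results of these data known. Of 74 listed genes 60 were measured, and 15 were higher (25%) and 14 lower (23.3%) in group A than in group D, beside the 16.0% and 12.0% of all genes. In group A against group B 19 were higher (31.7%) and 17 lower (28.3%), beside 26.9% and 15.0%. In the other comparisons limma's adjusted test called 0. At an unadjusted p under 0.05, 10 were higher and 9 lower for each gavaged group relative to group D. Over all genes these shares were 6.47% and 10.5% for group B and 7.42% and 12.2% for group C. Between groups B and C 0 passed at that threshold, beside 1.96% and 1.93% of all genes. Dpp4, the peptidase known as CD26, had 4.81, 4.83 and 5.20 in group A, 7.01, 7.10 and 7.24 in pups of group B and 6.99, 7.09 and 7.10 in group C, against 6.91, 6.88 and 7.37 in group D (-2.10 ± 0.17, adjusted p = 8.52e-06). As for Cd36, group A was low and the 9 other arrays lay close together, here within 6.88 to 7.37.

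Mme, a peptidase of early lymphocytes and stroma, and the death receptor Fas were lower in group A than in group D by 1.64 and 1.51 on the log2 scale (adjusted p = 0.0014 and 0.000707). Entpd1, an ectonucleotidase, differed by -2.05 (adjusted p = 0.0184). Itgal, an integrin chain of leukocytes, was at 2.57 (adjusted p = 0.0384), with levels of 9.42, 10.20 and 10.28 in group A, against 8.70, 4.76 and 8.74 in group D. Without group D replicate 2 its difference was 1.25 (adjusted p = 0.0275). Against group B, the interleukin receptor Il7r (-2.31), Dpp4 (-2.17), the complement receptor Cr2 (-2.09), Mme (-1.68) and the phosphatase Ptprc (-1.61) were furthest below in group A. Ptprc, the common leukocyte antigen, had 8.94, 9.28 and 9.33 in group A, 10.77, 10.82 and 10.78 in pups of group B and 10.93, 10.72 and 11.08 in group C, against 9.90, 9.89 and 10.85 in group D.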

How the data were processed

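Deposited values are MAS5 signals, made by the authors: a linear intensity per probe set and array without scaling across arrays. Array medians of the deposited intensity spanned 27.6 to 32.9 (group A), 19.3 to 30.9 (group B), 20.2 to 27.0 (group C) and 34.3 to 38.5 (group D). The file holds 31099 probe sets and 30 zeros. After 57 control probe sets were left out, 31042 were tested, of which 20826 carry 1 gene symbol, 436 several and 9780 none. Symbols came from the platform annotation and matched gene numbers of assembly GRCr8 for all 58 genes.

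The log2 intensities were quantile normalized over the 12 arrays and set to a floor of 1 in linear intensity. Groups were compared in limma 3.58.1 (R 4.3.3) with 1 mean per group, a variance trend over the mean level and two-sided tests, and p-values were adjusted by the Benjamini-Hochberg method over all probe sets within each comparison. A gene was called at an adjusted p under 0.05. With 3 arrays against 3 the smallest exact permutation p is 0.1, so the number of arrays limits the precision and the calls rest on spread pooled across probe sets. The script was tested on simulated data. For its own lists the study scaled values to group D in GeneSpring.

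The members, gene lists, roles, normalization and rules were chosen with earlier results of these data known. Named genes were the 12 largest rises and 12 largest falls called in each comparison, the 10 receptor chains and antigens of the plot of receptor chains, and the 5 largest changes among antigens with other symbols. Alternatives were unnormalized values, a higher floor (32), a variance without trend, 75th percentile centring, removal of the dimmest 40% of probe sets, a fit of the compared groups alone, a replicate block, the mean over the probe sets of a gene, and dropping each array.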

Additional observations from a re-analysis of the deposited data

Results flagged for a closer look

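In 5 of the 58 genes, beside 7.53% of all genes, every array of group A lay on one side of all arrays of group D and every array of 1 of the gavaged groups on the other side. This separation chose the genes, so the differences between the CLA groups are given as a description and were not tested here. None of the 5 genes passed limma's test for the gavaged group against group D with all arrays. In group A against group D, Cd96 (adjusted p = 0.165) and Cd320 (adjusted p = 0.0604) did not pass either. Cd53 was at -1.76 ± 0.16 (SE, n = 3 against 3) and Cd200r1 at -1.74 ± 0.33 in group A minus group C. Cd48 was at -1.34 ± 0.15 in group A minus group B. Cd96 was at -1.02 ± 0.23 in group A minus group C, with levels of 5.88, 5.57 and 5.00 in group A and 6.29, 6.71 and 6.50 in group C, against 5.99, 5.97 and 5.94 in group D. Cd320 ran the other way, at 0.95 ± 0.14 in group A minus group C, with levels of 8.18, 8.38 and 8.24 in group A and 7.29, 7.35 and 7.32 in group C, against 7.91, 8.08 and 7.60 in group D. Without group D replicate 3, Cd53, Cd48 and Cd320 passed in the gavaged group concerned.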

How the results depend on the processing

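Intensities as deposited gave 2 genes higher in group A than in group D in place of 8, 24 lower in group C than in group D in place of 0, and 5 lower in group A than in group B in place of 12. In that setting Cd164 and Cd47 turned sign between groups A and B, to 0.23 and 0.14. As deposited, the median of all probe sets was -0.12 for group A, -0.55 for group B and -0.70 for group C against group D, where the normalized medians were 0.07, -0.04 and -0.04. Without the variance trend, and likewise with only the 2 groups in the fit, 5 genes were higher in group A than in group D. Leaving out 1 array gave 5 to 9 genes higher and 7 to 12 lower in group A than in group D, 14 to 18 higher and 10 to 12 lower in group A than in group B, 0 to 4 higher and 0 to 10 lower in group B than in group D, and 0 to 4 higher and 0 to 14 lower in group C than in group D. The low end of the rises in group A came without group A replicate 2, and all calls in groups B and C came without group D replicate 3. Deviations of same-numbered arrays correlated at -0.02 to 0.08, and those of differently numbered arrays of different groups at -0.09 to 0.04. Whether same-numbered arrays share more than a number was not tested. With the replicate block 8 genes were higher and 9 lower in group A than in group D (Cd302 lost and Cd47 gained). In group A against group B 17 were higher and 12 lower. In the other comparisons the block gave 0. Among these settings, shares over all genes were counted only for intensities as deposited and without group D replicate 3, and are given above. Leaving out the dimmest probe sets kept 56 of the 58 genes. The cause of these changes was not tested.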
